A study of Rattus norvegicus with 10 samples.

Results

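Transcripts of neuropeptide precursors other than vasopressin and oxytocin were examined in the supraoptic nucleus of the rat after knock-down of Opn3. The genes were taken from a list of 36 names of peptides and peptide partners of the hypothalamus and forebrain, matched to the gene names of the deposited table. Of the 36 names, 34 were found, on 35 of the 32623 rows, because Gnrh1 stood beside 2 identifiers. A mean of at least 10 normalized counts over the 10 samples was reached by 18 of these rows, 13 lay below it and 4 were listed at 0 in every sample. No row was named Cort, and the row written NMS (mean 1.79) was not matched to Nms because the match was exact. At the limit, Ghrh (mean 14.6) was the lowest gene kept and Pomc (mean 9.96) the highest one left out.

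The samples came from male Sprague-Dawley rats, an outbred strain. Each rat had received adeno-associated viruses, with a hairpin RNA against Opn3 (group shOpn3, 5 samples) in the supraoptic nucleus of one side and a hairpin without a target (group shControl, 5 samples) in that of the other side. The nuclei were punched from brain sections 2 weeks later and sequenced one by one, so both groups carry a virus and an injection, and no untouched nucleus was among them. The labels give neither the side of each virus, nor the promoter that drove the hairpins, nor the age of the rats. Opsin 3, the product of Opn3, belongs to the family of light-sensing receptors and is also made outside the eye.

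Neuropeptides are cut from larger precursors by prohormone convertases and trimmed by carboxypeptidases, inside secretory granules. They can be released by neurons that also use a fast transmitter, and they act mostly on G-protein-coupled receptors. In the hypothalamus single peptides mark groups of neurons with known positions, such as the melanin-concentrating hormone and orexin neurons of the lateral area or the proopiomelanocortin and agouti-related peptide neurons of the arcuate nucleus. The magnocellular neurons of the supraoptic nucleus, by contrast, are defined by vasopressin and oxytocin.

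The libraries held 33158341 to 39958578 reads, with medians of 35296884 in shControl and 35373481 in shOpn3. The mean normalized count of Opn3 was 704 ± 277 in shControl against 188 ± 59.7 in shOpn3 (± SD over 5 samples; limma log2 difference -1.82, adjusted p = 0.00226). It was lower in shOpn3 in all 5 pairs, but the groups overlapped. The library labelled shControl replicate 5 had 261 normalized counts of Opn3, below the 290 of shOpn3 replicate 1 and far below the 694 to 1007 of the other controls. Without that library the 4 peptide genes called were Calca, Ghrh, Npff and Tac3, as with it, at log2 fold changes of -2.0, -1.17, -1.25 and 0.67. The tissue label was met by its defining transcripts, since Avp averaged 56039 and Oxt 26947 in shControl. Both were lower in shOpn3, at 11972 for Avp and 5563 for Oxt (limma adjusted p = 0.00269 and 0.000915). Across all 15597 genes tested, 2940 passed an adjusted p of 0.05 in limma, which is 18.8%, with 10.4% higher and 8.48% lower in shOpn3.

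Among the peptide genes, Calca, Ghrh and Npff fell and Tac3 rose in the nuclei with the Opn3 hairpin. Calca encodes the calcitonin gene-related peptide alpha and, by another splicing, calcitonin. Ghrh encodes growth hormone-releasing hormone, Npff the RF-amide neuropeptide FF, and Tac3 the tachykinin neurokinin B. These 4 of the 18 genes tested (22.2%) stand beside 18.8% of all genes, so the share called was close to the background. With the replicate number as a block, 6 of the 18 passed, beside 30.3% of all genes, and the added genes were Sst, which was higher, and Gnrh1, which was lower. Of the 18 log2 fold changes, 7 were above 0 and 11 below, with a median of -0.12 (range -1.92 to 0.91), beside a median of -0.019 for all genes tested. Non-overlapping groups were seen for 2 of 18, Calca and Ghrh, beside 15.3% of all genes. Both had shOpn3 means under 10 (8.24 and 8.50) and had passed the filter through the control samples. Their calls and their separation are to be read with that limit. In punched tissue, fewer cells that make a peptide and less transcript per cell cannot be told apart.

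**Figure D1:**
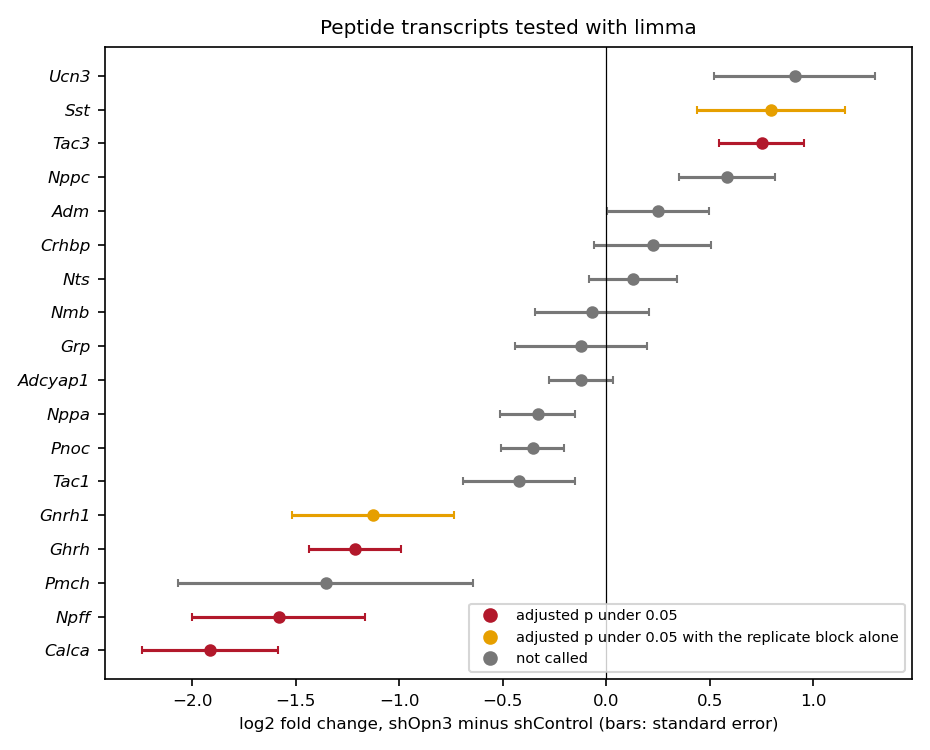
Log2 fold change (shOpn3 minus shControl, horizontal axis) of the 18 peptide genes tested with limma, with bars for the standard error of 5 against 5 samples. Calca, Npff and Ghrh lie lowest among the called genes at -1.92, -1.58 and -1.21, and Tac3 is called higher at 0.75.

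The promoters of Calca and Ghrh are shown because these genes fell in every pair with no overlap between the groups. Each line gives the 250 bases before the annotated start, 5′ to 3′, from RefSeq's assembly GRCr8, where Calca lies on the minus strand at chr1:178317530-178317779 and Ghrh on the minus strand at chr3:166431881-166432130. Capitals mark matches to TGACG, the half-site of the cyclic AMP response element, to TGANTCA, the site of AP-1 factors, and to TATAAA, all searched on both strands.
Calca: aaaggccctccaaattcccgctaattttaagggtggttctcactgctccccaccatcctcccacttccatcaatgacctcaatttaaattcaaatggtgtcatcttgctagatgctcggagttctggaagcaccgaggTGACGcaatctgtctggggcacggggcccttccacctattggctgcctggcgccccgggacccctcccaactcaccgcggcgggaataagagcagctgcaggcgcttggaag
Ghrh: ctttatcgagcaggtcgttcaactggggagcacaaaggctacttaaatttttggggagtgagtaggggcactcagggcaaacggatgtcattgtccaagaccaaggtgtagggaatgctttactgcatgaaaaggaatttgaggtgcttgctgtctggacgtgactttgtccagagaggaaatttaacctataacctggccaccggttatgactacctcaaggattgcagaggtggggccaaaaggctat
The Calca sequence held 1 TGACG, at bases -112 to -108 from the start, and the Ghrh sequence held no match to the 3 motifs. A promoter was found for 26 of the 36 names. TGACG occurred in 11 of these 26 promoters (42.3%) and in 18.2% of all 33469 promoters of the same length. TATAAA occurred in 9 of 26 (34.6%) against 12.9% of all, and TGANTCA in 3 of 26 (11.5%) against 6.34%. The palindrome TGACGTCA, which holds TGACG on both strands, was found in 2 of the 26 genes when 50 bases after the start were added, in Ucn at base -110 and in Sst at base 3 after the start, and in 1.83% of all such 300-base windows. These matches describe letters in the windows and say nothing of binding.

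Calca had 30.6, 31.5, 48.0, 26.2 and 24.3 normalized counts in shControl replicates 1 to 5 and 3.84, 12.7, 4.67, 9.66 and 10.3 in shOpn3 replicates 1 to 5. Every shOpn3 sample lay below every shControl sample, and the widest drop was in replicate 3. The mean went from 32.1 ± 9.36 to 8.24 ± 3.83 (± SD over 5 samples), 25.7% of the control. In limma the log2 difference was -1.92 with SE 0.328 and adjusted p = 0.00195, and the two-sided exact permutation p was 0.00794, the smallest that 5 against 5 samples allow. Its neighbour Calcb, which encodes a closely similar peptide, had a mean of 5.46 and was not tested, and reads shared by the pair could be split or lost in counting. Adm, the precursor of the vasodilator adrenomedullin from the same peptide family, had 159, 69.2, 66.3, 68.3 and 118 in shControl and 96.9, 93.5, 127, 126 and 98.6 in shOpn3. All 5 shOpn3 samples of Adm lay inside the range of the controls (limma log2 difference 0.25 with SE 0.245, adjusted p = 0.521).

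Ghrh had 22.4, 17.3, 19.4, 21.5 and 23.2 normalized counts in shControl and 11.5, 9.56, 7.48, 6.76 and 7.19 in shOpn3. The groups were apart and each was narrow. The mean went from 20.8 ± 2.41 to 8.50 ± 2.0 (± SD over 5 samples; limma log2 difference -1.21 with SE 0.223, adjusted p = 0.00291; two-sided exact permutation p = 0.00794). For Calca and Ghrh the shOpn3 means lay under 10, so that both had passed the filter on low values through the control samples. Counts this small carry a wide counting error in a single library.

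Npff had 85.6, 35.6, 77.6, 50.6 and 189 normalized counts in shControl and 50.8, 22.3, 16.8, 17.4 and 24.7 in shOpn3. All 5 pairs were lower with the Opn3 hairpin, with the groups overlapping through shOpn3 replicate 1. The mean went from 87.6 ± 60.1 to 26.4 ± 14.1 (± SD over 5 samples; limma log2 difference -1.58 with SE 0.417, adjusted p = 0.0196; two-sided exact permutation p = 0.0238). The pairs differed widely, since the shOpn3 value was 13.1% of the control in replicate 5 and 62.6% in replicate 2. Without shOpn3 replicate 3 the call was lost (log2 fold change -1.46, limma adjusted p = 0.0551).

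Tac3, the precursor of neurokinin B, had 181, 179, 139, 209 and 133 normalized counts in shControl and 199, 253, 437, 243 and 321 in shOpn3. It was higher in shOpn3 in 5 of 5 pairs, by 1.09 times in replicate 1 and by 3.15 times in replicate 3. The mean went from 168 ± 31.8 to 291 ± 92.9 (± SD over 5 samples; limma log2 difference 0.75 with SE 0.205, adjusted p = 0.0231; two-sided exact permutation p = 0.0159). The groups overlapped, because shControl replicate 4 stood above shOpn3 replicate 1. The call was lost without shControl replicate 3 (limma adjusted p = 0.0527), without shOpn3 replicate 3 (0.0520) and without shOpn3 replicate 5 (0.0587). Its relative Tac1, the precursor of substance P and neurokinin A, had 754, 1803, 2052, 1657 and 809 in shControl and 859, 1131, 1141, 1026 and 766 in shOpn3. In shControl the replicates 2 to 4 stood far above 1 and 5, while the shOpn3 samples lay close together. Tac1 did not pass the test over all samples (limma log2 difference -0.42 with SE 0.270, adjusted p = 0.314). With the samples numbered 2 to 4 alone it did (-0.74, limma adjusted p = 0.00256), a fit chosen after the data had been seen. That choice kept the controls highest in Tac1, so the fit is no support for a change of Tac1.

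**Figure D2:**
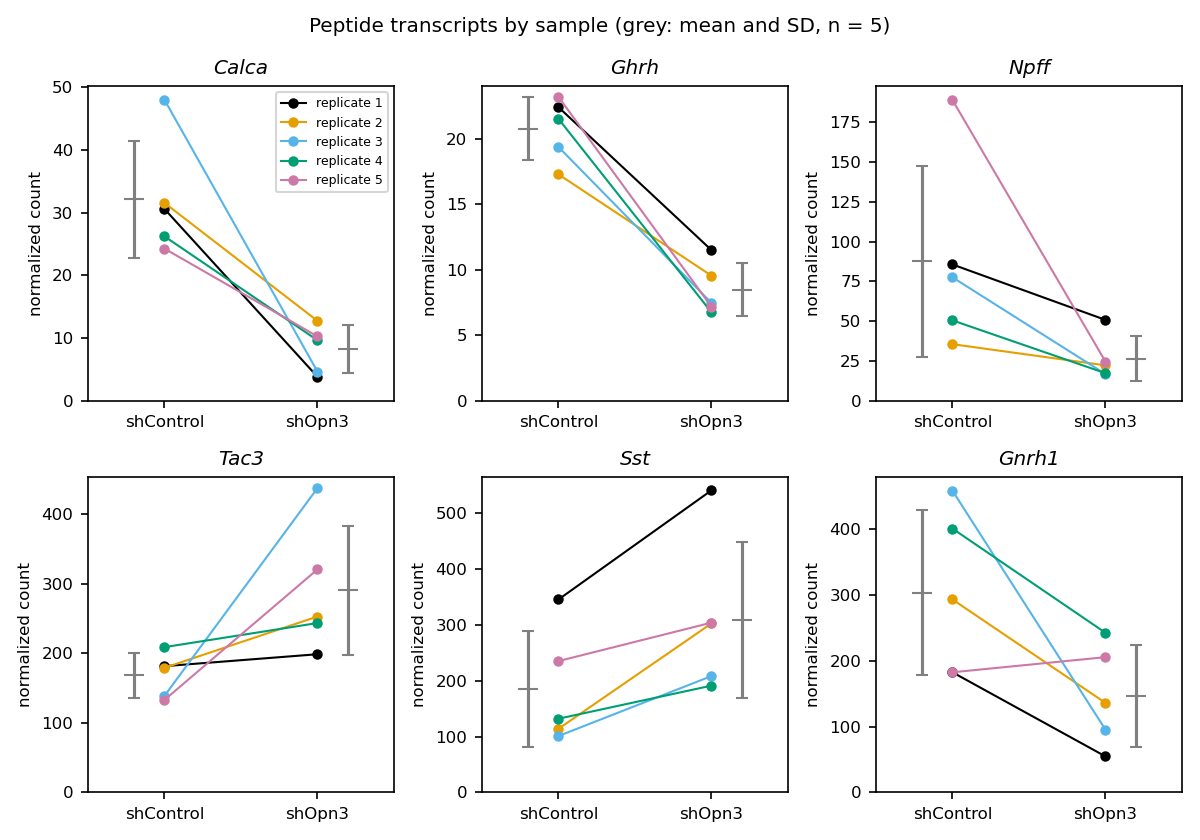
Normalized counts (vertical axis, from 0) of 6 peptide genes in shControl and shOpn3, with a line for each replicate number and the mean and SD of 5 samples in grey. Calca, Ghrh and Npff fall and Tac3 and Sst are higher in all 5 pairs, and Gnrh1 is lower in 4 of 5.

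Among peptides of inhibitory neurons, Sst encodes somatostatin, which marks a class of GABA neurons. Sst had 346, 114, 101, 132 and 235 normalized counts in shControl and 541, 303, 208, 191 and 304 in shOpn3. Replicate 1 was the highest in both groups, and within each pair the shOpn3 sample was higher, by 1.29 to 2.66 times. The mean went from 186 ± 104 to 310 ± 140 (± SD over 5 samples; limma log2 difference 0.80 with SE 0.357, adjusted p = 0.146; two-sided exact permutation p = 0.103). Blocked by replicate number, the same difference had an SE of 0.154 and a limma adjusted p of 0.00645. Pnoc, the precursor of nociceptin, had a mean of 270 ± 45.4 in shControl and 210 ± 33.7 in shOpn3 (± SD over 5 samples; limma log2 difference -0.36 with SE 0.152, adjusted p = 0.128) and was lower in 4 of 5 pairs.

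The stress-related peptides gave no call. Ucn3, the urocortin that binds the second receptor of corticotropin-releasing hormone, had 20.4, 20.4, 17.3, 14.0 and 24.3 normalized counts in shControl and 86.3, 65.8, 22.4, 22.2 and 22.6 in shOpn3. Its higher mean in shOpn3 came from replicates 1 and 2, while the other 3 stayed inside the range of the controls (limma log2 difference 0.91 with SE 0.389, adjusted p = 0.127). Crhbp, which binds and withholds corticotropin-releasing hormone, ranged from 63.2 to 154 in shControl and from 70.5 to 175 in shOpn3 (limma adjusted p = 0.630).

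Gnrh1 encodes gonadotropin-releasing hormone. The row of the identifier ENSRNOG00000013441 had 182, 293, 458, 401 and 183 normalized counts in shControl and 54.7, 136, 95.3, 242 and 205 in shOpn3. In 4 of 5 pairs the shOpn3 side was lower, and replicate 5 went the other way. The mean went from 303 ± 125 to 147 ± 77.2 (± SD over 5 samples; limma log2 difference -1.13 with SE 0.393, adjusted p = 0.0665; two-sided exact permutation p = 0.0476), and with the replicate block the limma adjusted p was 0.0249. The other row of the name, ENSRNOG00000013433, held 12 reads in all shControl and 11 in all shOpn3 samples. In RefSeq a single gene Gnrh1 overlaps the long noncoding RNA LOC103693653, so which transcript the higher row counts is uncertain.

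Pmch encodes the precursor of melanin-concentrating hormone. It had 966, 134, 64.3, 106 and 848 normalized counts in shControl and 195, 110.5, 43.9, 86.9 and 81.2 in shOpn3. shControl replicates 1 and 5 stood at more than 6 times the next control sample, and the remaining 8 samples lay between 43.9 and 195. All 5 pairs were lower in shOpn3, without a call (limma log2 difference -1.35 with SE 0.714, adjusted p = 0.217; with the replicate block 0.0528). With the samples numbered 2 to 4 alone the log2 fold change was -0.37. Pmch overlaps the gene Parpbp in RefSeq. Pomc, below the limit, likewise stood at 27.5 and 25.3 in shControl replicates 1 and 5 and at most at 10.3 in any other sample.

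Several peptide genes separated replicates 1 and 5 from the other numbers. In shControl these samples were the pair of highest values for 6 of the 18 genes (Adm, Ghrh, Npff, Pmch, Sst and Ucn3) and the pair of lowest for another 6 (Adcyap1, Crhbp, Gnrh1, Grp, Nts and Tac1). In shOpn3 the same numbers were the highest pair for 4 genes and the lowest pair for 2. Sst and Npff had replicates 1 and 5 highest in both groups, and Tac1 and Adcyap1 had them lowest in both. These counts describe an order noticed in the data, were not tested and have no share over all genes beside them. The order was not particular to peptide genes. In shControl the summed markers of cortical glutamate neurons were also highest in replicates 1 and 5 (2790 and 2959). Those of subcortical glutamate neurons were lowest there (8414 and 7031).

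**Figure D3:**
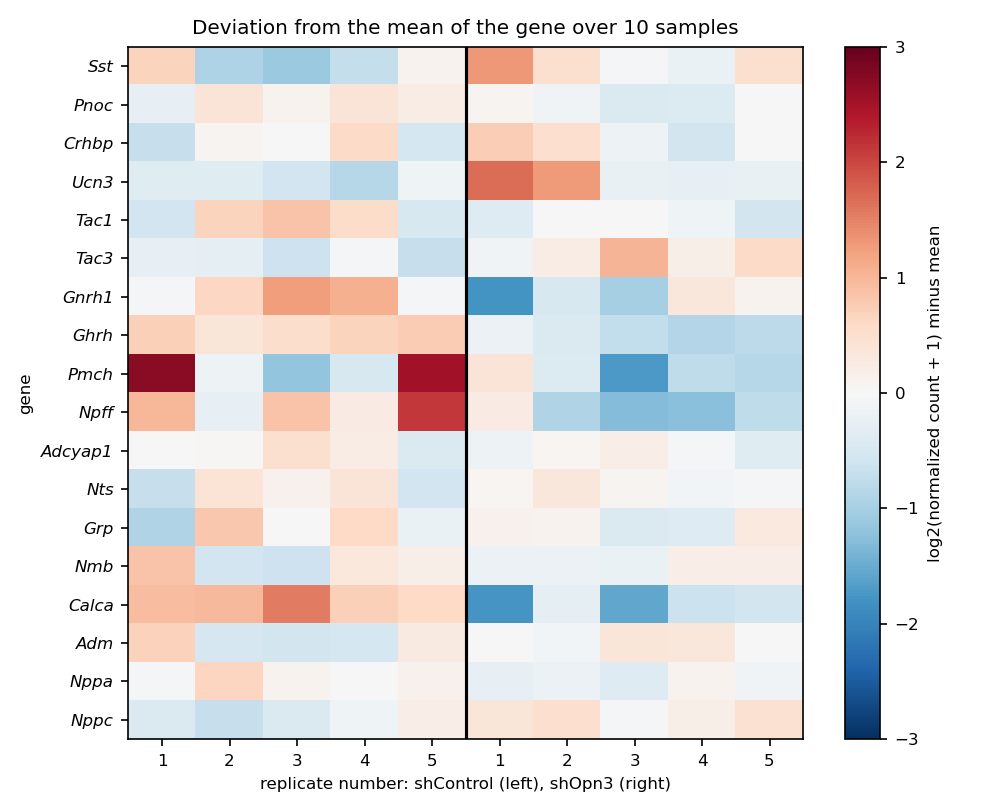
Deviation of log2(normalized count + 1) from the mean of each of the 18 genes over the 10 samples (colour), with genes in rows and replicate numbers 1 to 5 of shControl and then shOpn3 in columns. Pmch is far above its mean in shControl replicates 1 and 5, where Tac1 and Nts lie below theirs.

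The remaining peptides gave no call. Adcyap1, the precursor of PACAP, had 1201, 1236, 1679, 1422 and 899 normalized counts in shControl and 1093, 1256, 1394, 1165 and 938 in shOpn3, with the groups overlapping almost fully (limma log2 difference -0.12 with SE 0.155, adjusted p = 0.636). Nts, the precursor of neurotensin, had 305, 660.4, 538, 645 and 333 in shControl and 510.4, 620.2, 519, 469 and 476 in shOpn3, where the samples lay closer together (limma log2 difference 0.13 with SE 0.212, adjusted p = 0.717). The bombesin relatives Grp and Nmb had 24.8 ± 11.2 and 45.5 ± 20.1 in shControl and 21.3 ± 4.84 and 40.5 ± 6.18 in shOpn3 (± SD over 5 samples), with limma log2 differences of -0.12 and -0.067 (adjusted p = 0.834 and 0.898). Of the natriuretic peptides, Nppa had 49.5 ± 10.7 in shControl and 38.8 ± 5.04 in shOpn3 (± SD over 5 samples; limma log2 difference -0.33, adjusted p = 0.233). Nppc had 12.7 ± 3.4 and 19.3 ± 3.06 (± SD over 5 samples; limma log2 difference 0.58, adjusted p = 0.106) and was higher in shOpn3 in 5 of 5 pairs. The missed threshold does not show that these genes were alike in the groups.

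Below the limit lay the appetite peptides Pomc and Agrp, the arousal peptide Hcrt, the gonadal-axis peptides Kiss1 and Npvf, and Calcb, Nmu, Npb, Npw, Rln3, Sct and Ucn, besides the lower Gnrh1 row. Hcrt, the precursor of the orexins, had 3.06, 1.02, 27.6, 1.87 and 7.38 normalized counts in shControl, and 1 read in all 5 shOpn3 samples together. Most of its 40 control reads came from shControl replicate 3. Agrp held 35 reads in shControl and 29 in shOpn3, and Npvf 4 and 0. The authors' deposited table gives Hcrt a log2 fold change of -4.91 with an adjusted p of 0.00195, and it also lists Gnrh1 (-1.05), Ucn3 (1.19) and Pmch (-2.03) below 0.05, besides the 4 genes called here. Npy, Prlh, Qrfp and Uts2b were listed at 0 in all 10 samples. Npy, a peptide of many forebrain interneurons, stood next to a row for a near copy described as pro-neuropeptide Y-like (LOC100912228), which held 1 read in all samples. The fate of reads that map to both copies is not given in the sources used here, so the zeros are not a measurement of Npy.

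Markers of other neurons moved with the groups. The summed magnocellular list ranged from 58938 to 170934 normalized counts in shControl and from 11193 to 36671 in shOpn3. Most of each sum was Avp and Oxt, given above, as in shControl replicate 1 with 102261 and 56716 of 170934. All 8 genes of the magnocellular list were called lower. Of 4 arcuate markers tested 3 were called lower, Prdm12, Isl1 and Otp, the last of which also stands in the magnocellular list. That list of 5 names summed to between 346 and 437 in shControl and between 178 and 243 in shOpn3. Of 6 markers of cortical glutamate neurons 4 were called higher, and their sum ranged from 688 to 2959 in shControl and from 3205 to 5548 in shOpn3. Slc17a7, the vesicular glutamate transporter that defines them, had 253, 56, 61.2, 229 and 380 in shControl and 1046, 928, 1991, 556 and 1566 in shOpn3. Of 6 markers of forebrain interneurons 3 were called higher, with a sum of 6210 to 8810 in shControl and of 9979 to 14766 in shOpn3. Of 7 markers of GABA neurons tested 1 was called, Dlx5, which was higher. Of 8 neuronal markers 1 was called higher and 2 lower. The part of these shifts in the values of Sst, Tac3, Ghrh, Calca and Npff was not tested.

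**Figure D4:**
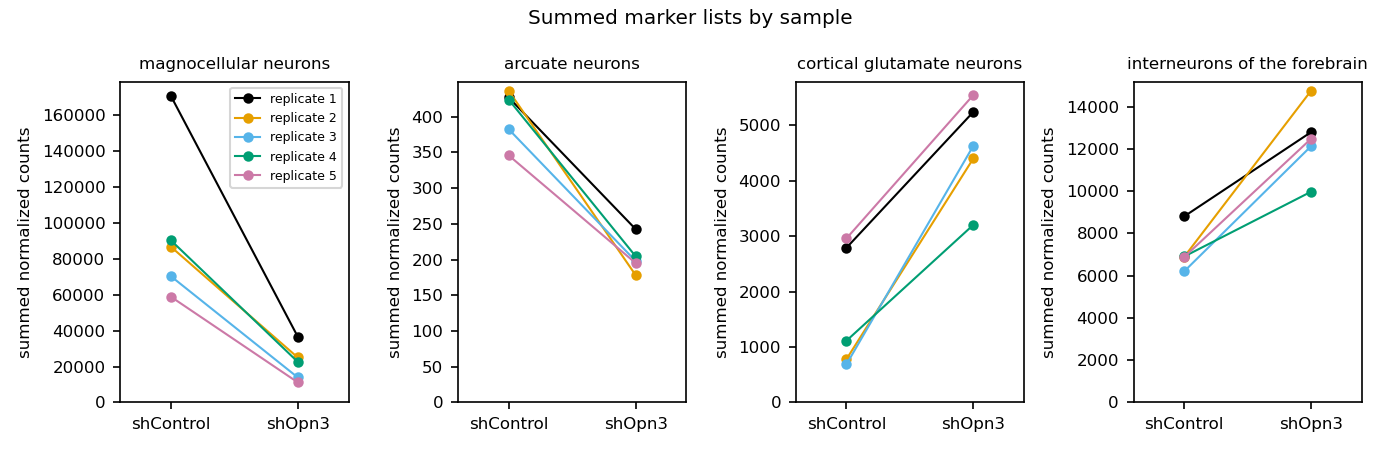
Summed normalized counts (vertical axis, from 0) of 4 marker lists in shControl and shOpn3, with a line for each replicate number. Magnocellular and arcuate lists are lower and cortical and interneuron lists higher in shOpn3 in every pair.

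Markers of glia, immune cells and injury moved as well. All 8 genes of microglia and macrophages were called higher (sum 13182 to 17343 in shControl, 21746 to 42898 in shOpn3), as were all 5 T cell genes (633 to 819, and 1540 to 4394). All 6 oligodendrocyte genes were called lower, and 3 of 6 astrocyte genes were called higher. Of 8 activity-induced genes 7 were called higher, and of 7 genes of injured neurons 3, namely Atf3, Sprr1a and Sox11. Of the spiny neurons' 8 markers 2 were higher and 2 lower, of 4 subcortical glutamate markers 1 was higher and of 4 suprachiasmatic markers 1 was higher. None of the 3 endothelial genes and none of the 4 genes of ependyma and choroid plexus tested was called by limma. Among the latter, Ttr reached 737 and 2396 in shControl replicates 1 and 5, against at most 244 in the other samples. Their part in the peptide values was not tested.

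The receptors of these peptides were taken from a list of 50 names, of which 44 genes were tested. Of these 44, 11 were called higher and 8 lower in shOpn3 (43.2%, beside 18.8% of all genes), with a median log2 fold change of 0.0036. The list was chosen with earlier results of these data known, so this share is no test of the receptors as a set. Among the called receptors the largest falls were those of Tacr3, Ramp3, Nmur2 and Rxfp1. Tacr3, the neurokinin B receptor and so the target of the Tac3 peptide, had 2197, 2305, 2683, 2744 and 1918 normalized counts in shControl and 1174, 682, 377, 458 and 386 in shOpn3 (limma log2 difference -2.08 with SE 0.269, adjusted p = 0.000481). Its groups were far apart. The magnocellular markers were lower in shOpn3 too, and any link of Tacr3 to them or to the higher Tac3 was not tested. Ramp3, which joins the calcitonin receptor-like receptor to form an adrenomedullin receptor, went from 223 ± 37.1 to 71.5 ± 22.3 (± SD over 5 samples; limma log2 difference -1.66, adjusted p = 0.000340). Nmur2, a receptor of neuromedins U and S, changed by -1.52, and the relaxin receptor Rxfp1 by -1.16 (limma adjusted p = 0.00149 and 0.000742).

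Among the called receptors the largest rises were those of Tacr2, Nmbr, Npy2r and Qrfpr. Npy2r, an inhibitory receptor of neuropeptide Y, went from 150 ± 25.7 to 290 ± 46.6 normalized counts (± SD over 5 samples; limma log2 difference 0.95 with SE 0.158, adjusted p = 0.00168). Tacr2 and Nmbr, the receptors of neurokinin A and neuromedin B, rose by 1.16 and 1.06 on the log2 scale (limma adjusted p = 0.0144 and 0.00699), from means of 12.2 and 21.5 in shControl. Qrfpr, the receptor of the RF-amide QRFP, rose by 0.85 (limma adjusted p = 0.0227). For the receptors of the other called peptides, chosen after their values were seen, Ghrhr had a mean of 1.22 in shControl and 0.57 in shOpn3 and was too low to test. Npffr1 had 21.3 ± 11.7 and 18.6 ± 10.3 (± SD over 5 samples; limma adjusted p = 0.803). Npffr2, the other receptor of neuropeptide FF, had 14.1 ± 7.20 and 4.73 ± 1.81 (± SD over 5 samples), lower in all 5 pairs, and was under the limit for testing. Calcrl and Ramp1, which together bind calcitonin gene-related peptide, had log2 fold changes of 0.33 and 0.13 (limma adjusted p = 0.0535 and 0.644). Calcrl was higher in all 5 pairs, and blocked by replicate number its limma adjusted p was 0.00746. With that block 30.3% of all genes and 54.5% of the receptors tested passed. Calcr, the calcitonin receptor, had a log2 fold change of -0.34 (limma adjusted p = 0.630, with the replicate block 0.319).

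Of 29 names for the processing, packaging and breakdown of peptides, 28 were tested, of which 2 were called higher and 6 lower (28.6%, beside 18.8% of all genes), with a median log2 fold change of -0.16. This list too was chosen with earlier results of these data known. The prohormone convertase Pcsk1 fell from 3336 ± 1190 to 1620 ± 452 normalized counts (± SD over 5 samples; limma log2 difference -1.0 with SE 0.280, adjusted p = 0.0265). Its relatives Pcsk5 and Pcsk6 changed by -1.0 and -0.78 (limma adjusted p = 0.000398 and 0.0208), and Cadps2, which primes dense-core vesicles for release, by -1.04 (limma adjusted p = 0.00226). Carboxypeptidase E (Cpe), which trims the cut ends, rose by 0.28 and the peptidase neurolysin (Nln) by 0.25 (limma adjusted p = 0.0448 and 0.0291), and both calls were lost without shControl replicate 5 (0.0633 and 0.0571). Pcsk2, the second neuronal convertase, and the granins Chga, Chgb and Scg2 were not called, with log2 fold changes of -0.17, -0.21, -0.16 and 0.07.

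**Figure D5:**
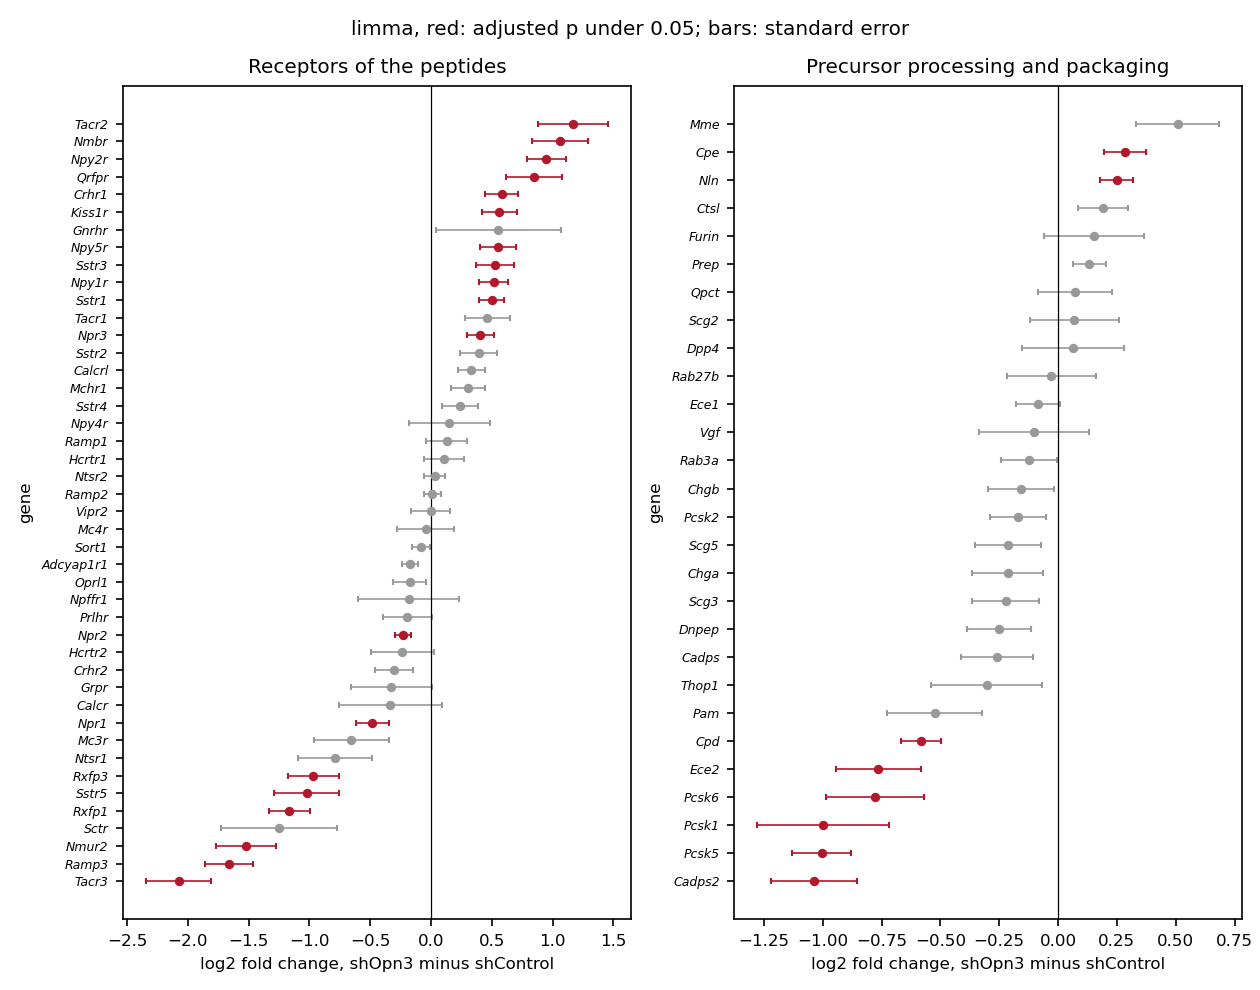
Log2 fold change (shOpn3 minus shControl, horizontal axis) with its standard error for 44 receptor genes (left) and 28 processing genes (right), called genes in red. Receptors spread to both sides, from Tacr3 at -2.08 to Tacr2 at 1.16, while 6 of the 8 called processing genes lie below 0.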

How the data were processed

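RNA sequencing of 10 punched supraoptic nuclei was deposited as 1 table. Per the submitters' processing notes, FastQC, STAR, featureCounts and DESeq2 were used, and their versions, the genome build and the annotation are not given in the sources used here. Per the file headers, the authors gave a signal for every gene and sample, a read count scaled by the sample's size factor. Every value was a whole multiple of the value of 1 read within 0.001 reads (100% of the values in each sample), so whole reads were recovered. The authors' deposited table also gives log2 fold changes with standard errors, a Wald score, p-values and adjusted p-values, which are quoted once and named there.

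Because the values are normalized, log2(normalized count + 1) was compared with limma 3.58.1 in R 4.3.3 (lmFit, eBayes with trend, group as the sole term) over all 15597 genes with a mean of at least 10. Tests were two-sided with Benjamini-Hochberg adjustment over all these genes and a threshold of 0.05, and fold changes on this scale understate those of low genes. The edgeR test planned for raw counts was run on the recovered reads as an alternative. Single genes were also compared by exact permutation over the 252 splits (scipy 1.17.1). The limma, edgeR and DESeq2 fits without the block were tested on simulated data, and the other fits were not. Alternatives were the replicate number as a block, edgeR 4.0.16, DESeq2 1.42.0, limma-voom with sample weights, pseudocounts of 0.5 and 5, no filter, quantile normalization and leaving out each sample. Added after the data had been seen were the count tests with the block and the samples numbered 2 to 4 alone, whose replicates 1 and 5 differed in Pmch.

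The labels' protocols say that both hairpins went into the same rat, although no label says that equal numbers mark the same rat. Deviations from the group means correlated at 0.12 to 0.44 between samples of the same number (5 pairs) and at -0.45 to 0.36 (median -0.21) in the 20 other pairings. Deviations from a group's own mean cancel out within the group, so positive correlations in some pairings force negative ones in others. The negative median is thus partly built in. Each same-numbered pair exceeded 0.1, and the numbers were taken to pair the samples. That limit did not set them apart, since shControl replicate 3 with shOpn3 replicate 2 reached 0.36. shControl replicate 4 correlated more with shOpn3 replicates 2 and 3 (0.24 each) than with shOpn3 replicate 4 (0.12). shOpn3 replicate 4 in turn correlated more with shControl replicate 5 (0.17). The pairing was thus inferred from these same values, and the counts of pairs and the p-values with the block rest on it. The labels do not say that different numbers are different rats, so p-values measure only the spread between these samples, which may in part be technical. The peptide genes and lists were chosen with earlier results of these data known. Named were all peptide genes with a mean of at least 10, with every sample's value for those called and the highest, and up to 4 called genes each way per list. Sequences are RefSeq's (GRCr8), where 35 of 36 names were found. Levels are not per length and are not compared between genes.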

Additional observations from a re-analysis of the deposited data

Results flagged for a closer look

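For the 35 named genes, each group of 5 was searched for a sample standing apart, that is, one separated from its neighbour by most of the spread of the group. Of the 70 searches 3 found one, and chance alone at 1 in 20 would give about 3.5. For Npff it was shOpn3 replicate 1 (50.8 normalized counts, next 24.7). For Nppa it was shControl replicate 2 (68.2, next 47.5). For Oxt it was shControl replicate 1 (56716, next 21354).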

How the results depend on the processing

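Over 21 alternatives, Calca and Ghrh kept their direction and their call in all fits, with log2 fold changes from -2.19 to -1.51 and from -1.52 to -0.94. The fits reuse the same samples and are not independent of each other, and both genes had passed the filter through the control samples. Tac3 kept its direction and lost the call in 4 fits (0.59 to 0.87 over all), and Npff lost it in 1 (-1.84 to -1.09). Sst was called in 6 fits and Gnrh1 in 7, always in the same direction. Against 4 peptide genes called (1 higher), DESeq2 called 7 (2 higher), limma-voom with sample weights 10 (4 higher), the samples numbered 2 to 4 alone 8 (2 higher), and edgeR and DESeq2 with the replicate block 8 each (3 higher). Limma with the replicate block called 6 peptide genes (Sst and Gnrh1 added), and the pairing ended no call. Leaving out 1 sample gave 2 to 6 peptide genes, 2 of them without shOpn3 replicate 3 (Calca and Ghrh). For all genes, 2940 calls became 4726 with the block (limma), 5085 with limma-voom, 4777 with edgeR and the block, 4587 with DESeq2 and the block, and 1973 to 3057 when 1 sample was left out. Limma-voom called 30 of the receptors against 19 and 14 of the processing genes against 8. Leaving out 1 sample gave 4 to 7 processing genes, 4 without shOpn3 replicate 3 and 5 without shControl replicate 2. The sign of genes near 0 turned in some fits without a call. With limma-voom, Crhbp was -0.10, Nmb 0.20 and Nts -0.24. That fit gave shControl replicates 1 and 5 its lowest sample weights (0.333 and 0.356, the others 0.690 to 3.72). The same samples are left out of the next fit, so the 2 fits are not separate. With the samples numbered 2 to 4 alone, Crhbp was -0.29, Nmb 0.22 and Nts -0.20. Without 1 sample, Grp ranged from -0.36 to 0.065 (above 0 without shControl replicate 2 or 4), Nmb from -0.23 to 0.14 (above 0 without shControl replicate 1 or 4) and Nts from -0.026 (without shControl replicate 1) to 0.25. The causes were not tested. Among the other named genes, Cpe lost its call in 12 fits, Pcsk1 and Nln in 5 each, Qrfpr in 3 and Pcsk6 in 1. The median of all genes stayed between -0.035 and 0.0020 on the log2 scale. The 13 rows with reads but a mean under 10 were left out of the test, and nothing is said here of whether they differ.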
